A study of Sus scrofa with 2 samples.

Results

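The oxidative phosphorylation genes were described in single cells of pig longissimus dorsi, the long back muscle, as the nuclear-encoded subunits beside the mitochondrially encoded ones. Members were chosen by symbol: nuclear genes named NDUFA, NDUFB, NDUFC, NDUFS or NDUFV followed by digits alone (complex I), SDHA to SDHD (complex II), UQCR with any ending (complex III), COX4 to COX8 with any ending (complex IV) or ATP5 with any ending (complex V), and the genes of the mitochondrial genome that encode protein. They numbered 76 of the 21301 genes of the count matrices, 63 nuclear and 13 mitochondrial. Complex I held 29 nuclear and 7 mitochondrial members, complex II 3 nuclear, complex III 5 and 1, complex IV 13 and 3, and complex V, the ATP synthase, 13 and 2. A further 4 subunit genes, SDHA, NDUFA4, NDUFB1 and UQCR11, carried an identifier but no symbol in the matrices and are named below only where they are needed.

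Oxidative phosphorylation passes electrons from NADH and succinate along complexes I to IV of the inner mitochondrial membrane and uses the proton gradient that results to make ATP at complex V. Its subunits are encoded partly in the nucleus and partly in mitochondrial DNA, so each complex except complex II needs both genomes. In mammals some complex IV subunits exist as isoforms encoded by separate genes, among them COX6A2 and COX7A1 of heart and skeletal muscle and, in humans and mice, COX4I2, known from lung and from the mural cells of vessels.

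The study compared the GDSS pig, the Guangdong small-eared spotted breed, with the Yorkshire pig in cells prepared for a project on intramuscular vascular stem cells. Each breed was 1 library, made from muscle of piglets taken at 1 g per animal, after red cell lysis and magnetic removal of dead cells, with a 10x Genomics droplet kit. The number of piglets behind each library and their age are not given in the sources used here, nor is the meaning of the term P0 in both titles, so whether it names an age or a culture passage is not known. Replicates were thus lacking and nothing was tested. A difference between breeds cannot be told apart from a difference between animals, preparations or libraries, and the 95% intervals below reflect counting error alone.

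The matrices held 12286 barcodes in the GDSS library and 14695 in the Yorkshire library. After barcodes with under 500 genes and likely doublets were removed, 11239 GDSS and 13778 Yorkshire cells were kept. The median depth was 2858 UMIs (unique molecular identifiers, each a captured RNA molecule) per GDSS cell and 2996 per Yorkshire cell. The libraries shared 47 barcode sequences, 40 of them among kept cells. Cells were assigned to a class when their own UMIs of a fixed marker list passed a gate, with no member gene used in any gate, and 9942 GDSS and 9889 Yorkshire cells fell into exactly 1 class. Pericyte-like cells also had to lack UMIs of the smooth muscle marker MYH11, and smooth muscle-like cells to have them. A further 984 GDSS and 3577 Yorkshire cells entered no class, including any vessel-wall cells that passed a gate but failed its MYH11 condition.

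Of 11 classes, 9 had at least 50 cells in both libraries, and each is named "-like" because it rests on rebuilt marker gates. In the GDSS library these were 7830 FAP-like cells (fibro-adipogenic progenitors, the mesenchymal cells of muscle), 456 tenocyte-like, 388 satellite-like (muscle stem cells), 57 myofibre-like, 220 endothelial-like, 205 pericyte-like, 129 smooth muscle-like, 318 glia-like and 315 macrophage-like cells. The Yorkshire library held 4149 satellite-like, 1987 FAP-like, 1570 endothelial-like, 615 smooth muscle-like, 322 glia-like, 318 pericyte-like, 299 myofibre-like and 135 macrophage-like cells, and fewer tenocyte-like cells than the GDSS library. FAP-like cells were thus the main class of the GDSS library and satellite-like cells that of the Yorkshire library. For that reason all comparisons of breeds were made within a class. Per 1000000 UMIs of the class, the satellite markers summed to 2497 in GDSS and 1941 in Yorkshire satellite-like cells, and to 13.4 in GDSS FAP-like cells. In 7 of the 9 classes the class's own marker list gave the highest sum of all lists in both libraries. The other 2 went against their names: tenocyte-like cells had more UMIs of FAP markers (61927 in GDSS, 57700 in Yorkshire) than of tenocyte markers (8870 in GDSS, 6918 in Yorkshire), and pericyte-like cells more of smooth muscle markers (8177 in GDSS, 9996 in Yorkshire) than of pericyte markers (4070 in GDSS, 3900 in Yorkshire). Adipocyte markers stayed at or below 20.7 on that scale in each of the 9 classes, and GDSS endothelial-like cells carried 1113 of erythroid markers, against 13.1 in Yorkshire endothelial-like cells.

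Levels are counts per 1000000 (CPM), the UMIs of a gene or of a summed set scaled to 1000000 UMIs of the class in that library. UMIs count captured molecules and were not scaled by gene length, and how well each transcript is captured is not known, so shares between genes are shares of captured molecules. Over all kept cells the nuclear set stood at 8660 CPM in GDSS and 9507 in Yorkshire. The mitochondrial set made up 4.42% of all UMIs in GDSS and 4.28% in Yorkshire.

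The nuclear set was highest in the muscle-fibre and vessel-wall classes of both libraries. Myofibre-like cells had 17698 CPM (95% interval 16883 to 18542) in GDSS and 20242 (19903 to 20586) in Yorkshire. Smooth muscle-like cells had 15869 CPM in GDSS and 19012 in Yorkshire, and pericyte-like cells had 12183 in GDSS and 14355 in Yorkshire. The other 6 classes lay between 8216 and 10657 CPM in GDSS and between 8394 and 9986 in Yorkshire. By totals the 3 leading classes were the same, in the same order, in the 2 libraries, while the order below them differed: satellite-like cells came next in GDSS, at 10657 CPM, but were last but 1 in Yorkshire, at 8628. With median-of-ratios size factors, smooth muscle-like cells stood further above FAP-like cells than myofibre-like cells did in GDSS.

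The mitochondrial set followed another order. Its share of UMIs in GDSS was highest in glia-like cells at 6.48%, then macrophage-like cells at 6.35%, smooth muscle-like cells at 6.05% and pericyte-like cells at 5.35%. In Yorkshire it was highest in smooth muscle-like cells at 7.85%, then pericyte-like cells at 6.59%, macrophage-like cells at 6.10% and glia-like cells at 5.33%. Endothelial-like cells had the lowest share in both, 3.39% in GDSS and 2.43% in Yorkshire. Myofibre-like cells, first for the nuclear set, had a middle share of 4.98% in GDSS and 4.35% in Yorkshire.

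The 2 sets therefore did not rank the classes alike. Each nuclear-set UMI was matched by 2.81 mitochondrial UMIs (2.66 to 2.97) in GDSS and 2.15 (2.11 to 2.19) in Yorkshire myofibre-like cells. In glia-like cells the ratio was 7.61 in GDSS and 5.34 in Yorkshire, and in macrophage-like cells it was 7.08 in GDSS and 6.28 in Yorkshire. The lowest ratio was in myofibre-like cells in both libraries. Across the 9 classes the Pearson correlation between the sets was 0.27 in GDSS and 0.55 in Yorkshire, over points that share a library and its depth. Both sets also moved with depth within a class, in a direction that differed between classes. The nuclear set had 14721 CPM in GDSS and 16737 in Yorkshire pericyte-like cells under 2000 UMIs, and 9047 in GDSS and 11933 in Yorkshire ones of 4000 or more. In GDSS satellite-like cells it rose instead, from 10131 CPM under 2000 UMIs to 10961 at 4000 or more. Yorkshire satellite-like cells showed no such rise, with 9041 under 2000 UMIs, 8289 in the middle bin and 9121 at 4000 or more. GDSS myofibre-like cells had 19062 under 2000 UMIs (46 cells) and 15523 in the middle bin (10 cells), against 20290 and 19764 in Yorkshire. For the mitochondrial set, Yorkshire smooth muscle-like cells under 2000 UMIs had a share of 14.9% and those of 4000 or more had 6.16%. In GDSS endothelial-like cells that share rose from 2.84% to 3.52%. Whether this depth relation plays a part in the class values was not tested.

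**Figure D1:**
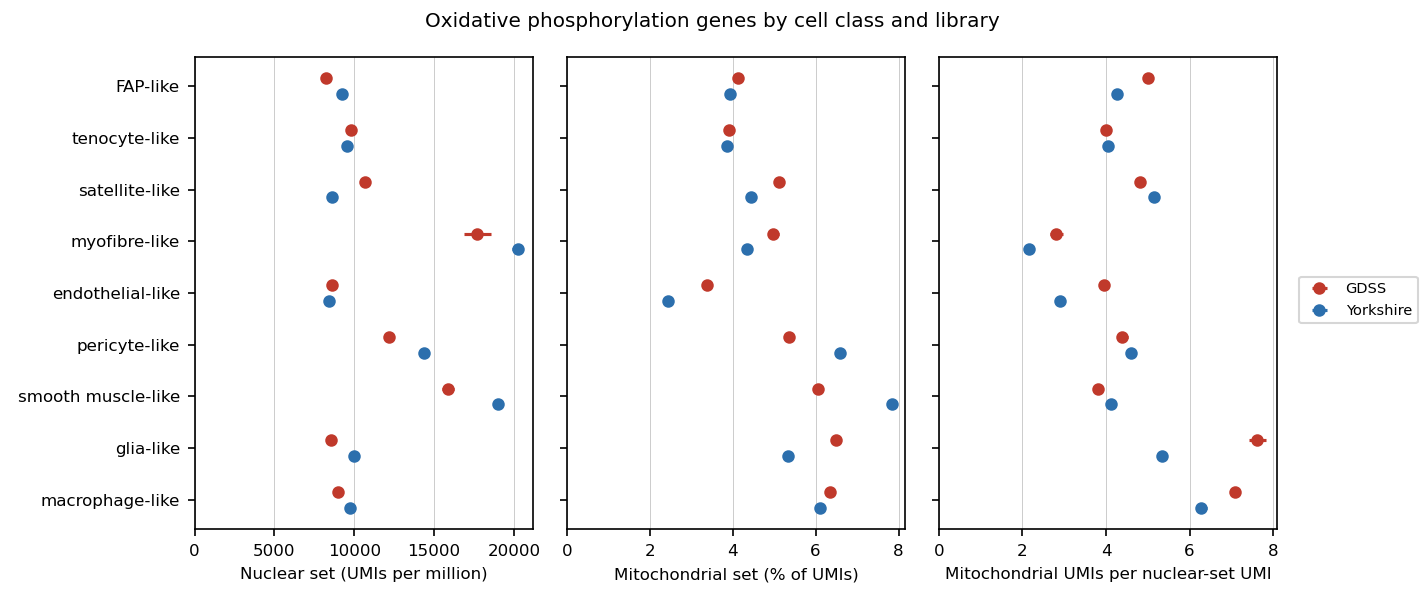
Level of the nuclear set in CPM (left), share of the mitochondrial set in percent of UMIs (middle) and mitochondrial UMIs per nuclear-set UMI (right) in the 9 classes, each point the sum over all cells of 1 class in 1 library, with bars for the 95% counting interval. Myofibre-like and smooth muscle-like cells stand highest for the nuclear set, at 15869 to 20242 CPM, and endothelial-like cells have the lowest mitochondrial share, at 3.39% in GDSS and 2.43% in Yorkshire.

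Set against FAP-like cells of the same library, the nuclear set was 1.93-fold (1.89 to 1.98) as high in GDSS smooth muscle-like cells and 2.06-fold (2.04 to 2.09) as high in Yorkshire. Myofibre-like cells stood 2.15-fold above FAP-like cells in GDSS and 2.20-fold in Yorkshire. With size factors in place of totals the ratios of both classes were smaller in both libraries. Smooth muscle-like cells then stood above myofibre-like cells in GDSS but not in Yorkshire. Pericyte-like cells stood 1.48-fold above in GDSS and 1.56-fold in Yorkshire. The other classes lay between 1.04-fold and 1.30-fold in GDSS and between 0.911-fold and 1.08-fold in Yorkshire. Satellite-like cells lay above FAP-like cells in GDSS, at 1.30 (1.27 to 1.32), and below them in Yorkshire, at 0.936 (0.928 to 0.945), a direction that turned with median-of-ratios size factors in place of totals (Yorkshire log2 -0.095 by totals and 0.20 by size factors). By totals, endothelial-like cells lay at 1.05 in GDSS and 0.911 in Yorkshire.

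Complex III, which passes electrons to cytochrome c, led the difference in smooth muscle-like cells. The summed complex III members stood 2.51-fold above FAP-like cells in GDSS and 2.45-fold in Yorkshire, complex IV members 2.04-fold in GDSS and 2.26-fold in Yorkshire, and complex V members 2.09-fold in GDSS and 2.17-fold in Yorkshire. Complex I members, the NADH dehydrogenase, stood lower, at 1.61-fold in GDSS and 1.71-fold in Yorkshire. In myofibre-like cells the complex I sum was 2.30-fold in GDSS and 2.33-fold in Yorkshire, above the complex IV sum of 1.89-fold in GDSS and 1.97-fold in Yorkshire. Complex III was again first in myofibre-like cells, at 2.70-fold in GDSS and 2.89-fold in Yorkshire, while complexes I and IV took opposite places in the 2 classes.

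Member by member, a gene was counted as apart when it was at least 1.5-fold away from FAP-like cells in both libraries, among genes with enough UMIs to be measured. In smooth muscle-like cells 44 of 60 measured nuclear members were higher and 0 lower, where 14.2% of all measured genes were higher and 19.5% lower. The higher members were 16 of 27 for complex I, 3 of 3 for complex II, 4 of 5 for complex III, 10 of 12 for complex IV and 11 of 13 for complex V. Their median log2 ratio was 0.94 in GDSS and 1.08 in Yorkshire, against -0.00092 and -0.0087 over all measured genes. UQCRC1, a core subunit of complex III, had 203 CPM in GDSS and 265 in Yorkshire smooth muscle-like cells, against 63.3 and 71.6 in FAP-like cells. ATP5IF1, the inhibitor of ATP synthase, had 472 in GDSS and 620 in Yorkshire smooth muscle-like cells, a ratio to FAP-like cells of 3.27 and 3.53. SDHC, a membrane anchor of complex II, stood 2.28-fold above FAP-like cells in GDSS and 3.31-fold in Yorkshire. Of the 12 measured mitochondrial members, 3 were higher, COX1, COX2 and ND6.

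In myofibre-like cells 20 of 30 measured nuclear members were higher and 0 lower, against 13.8% of all genes higher and 34% lower. The small GDSS sum of 100014 UMIs limited that comparison to the more abundant members: 9 of 29 for complex I, 9 of 13 for complex IV, 12 of 13 for complex V and 0 for complexes II and III. Of those measured, 5, 5 and 10 were higher, as were 3 of 11 mitochondrial members. NDUFS4, a peripheral subunit of complex I, had 600 CPM in GDSS and 593 in Yorkshire myofibre-like cells, against 236 and 257 in FAP-like cells. It was lowest in macrophage-like cells, at 65.2 in GDSS and 63.4 in Yorkshire. NDUFA11, a complex I subunit at its membrane arm, had 340 in GDSS and 294 in Yorkshire myofibre-like cells, and its lowest level was in endothelial-like cells, at 49.2 in GDSS and 45.2 in Yorkshire. These genes therefore kept the same highest and lowest class in both libraries. Of the 61 nuclear members with at least 1000 UMIs, 35 (57.4%) had their highest level in myofibre-like cells in GDSS and 43 (70.5%) in Yorkshire. Of the 6530 genes with as many UMIs, 21.5% did so in GDSS and 17.2% in Yorkshire. In both libraries it was 31 members, which is 50.8% against 11.3% of those genes. A further 9 were highest in smooth muscle-like cells in both libraries, 14.8% against 5.34% of all such genes.

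Pericyte-like cells had 18 of 60 measured nuclear members higher and 0 lower, against 10.2% of all genes higher and 16.1% lower. Complex IV gave 6 of its 12 measured members, complex I 7 of 27, complex V 3 of 13, complex III 1 of 5 and complex II 1. Of the mitochondrial members, 5 of 12 were higher: ND1, ND2, ND6, COX1 and COX2. COX7B, a small complex IV subunit, had 397 CPM in GDSS and 475 in Yorkshire pericyte-like cells, against 153 and 213 in FAP-like cells. Pericyte-like and smooth muscle-like cells shared clusters when cells were grouped without the member genes, so these 2 classes are neighbours and not fully separate. The MYH11 condition that parts them depends on depth. Pericyte-like cells had a median of 1643 UMIs in GDSS and 2377 in Yorkshire, and smooth muscle-like cells 2988 and 3135. Whether shallow smooth muscle cells entered the pericyte-like class was not tested.

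In the other 5 classes few members stood apart in both libraries. Satellite-like cells had 1 nuclear member higher and 3 lower of 61, against 6.95% and 21.2% of all genes. The higher one was COX7A1, and the lower ones were ATP5F1D, NDUFS4 and COX4I2. Endothelial-like cells had 3 higher and 5 lower of 61, against 11.7% and 22.3%, with ATP5MC1, which encodes the c subunit of the ATP synthase rotor, at 273 CPM in GDSS and 252 in Yorkshire against 143 and 142 in FAP-like cells. Macrophage-like cells had 3 higher and 7 lower of 61, against 14.4% and 38.7%. Glia-like cells had 1 higher and 3 lower of 60, against 16.8% and 18%, the higher one being UQCRFS1, the Rieske iron-sulfur protein of complex III. Tenocyte-like cells had 2 higher and 0 lower of 61, against 4.63% and 25.3%: COX7A1 and NDUFS3, a core complex I subunit. In each of these 5 classes the share of nuclear members that stood apart, in either direction, was below that of all genes. Of the 13 mitochondrial members, ND1, ND3, ND6 and CYTB stood apart in glia-like cells. COX1, COX3 and CYTB did so in macrophage-like cells and ND2 and ND6 in satellite-like cells, all higher than in FAP-like cells. In these classes the higher share of mitochondrial members was thus above the 16.8%, 14.4% and 6.95% of all genes. None stood apart in tenocyte-like and endothelial-like cells.

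**Figure D2:**
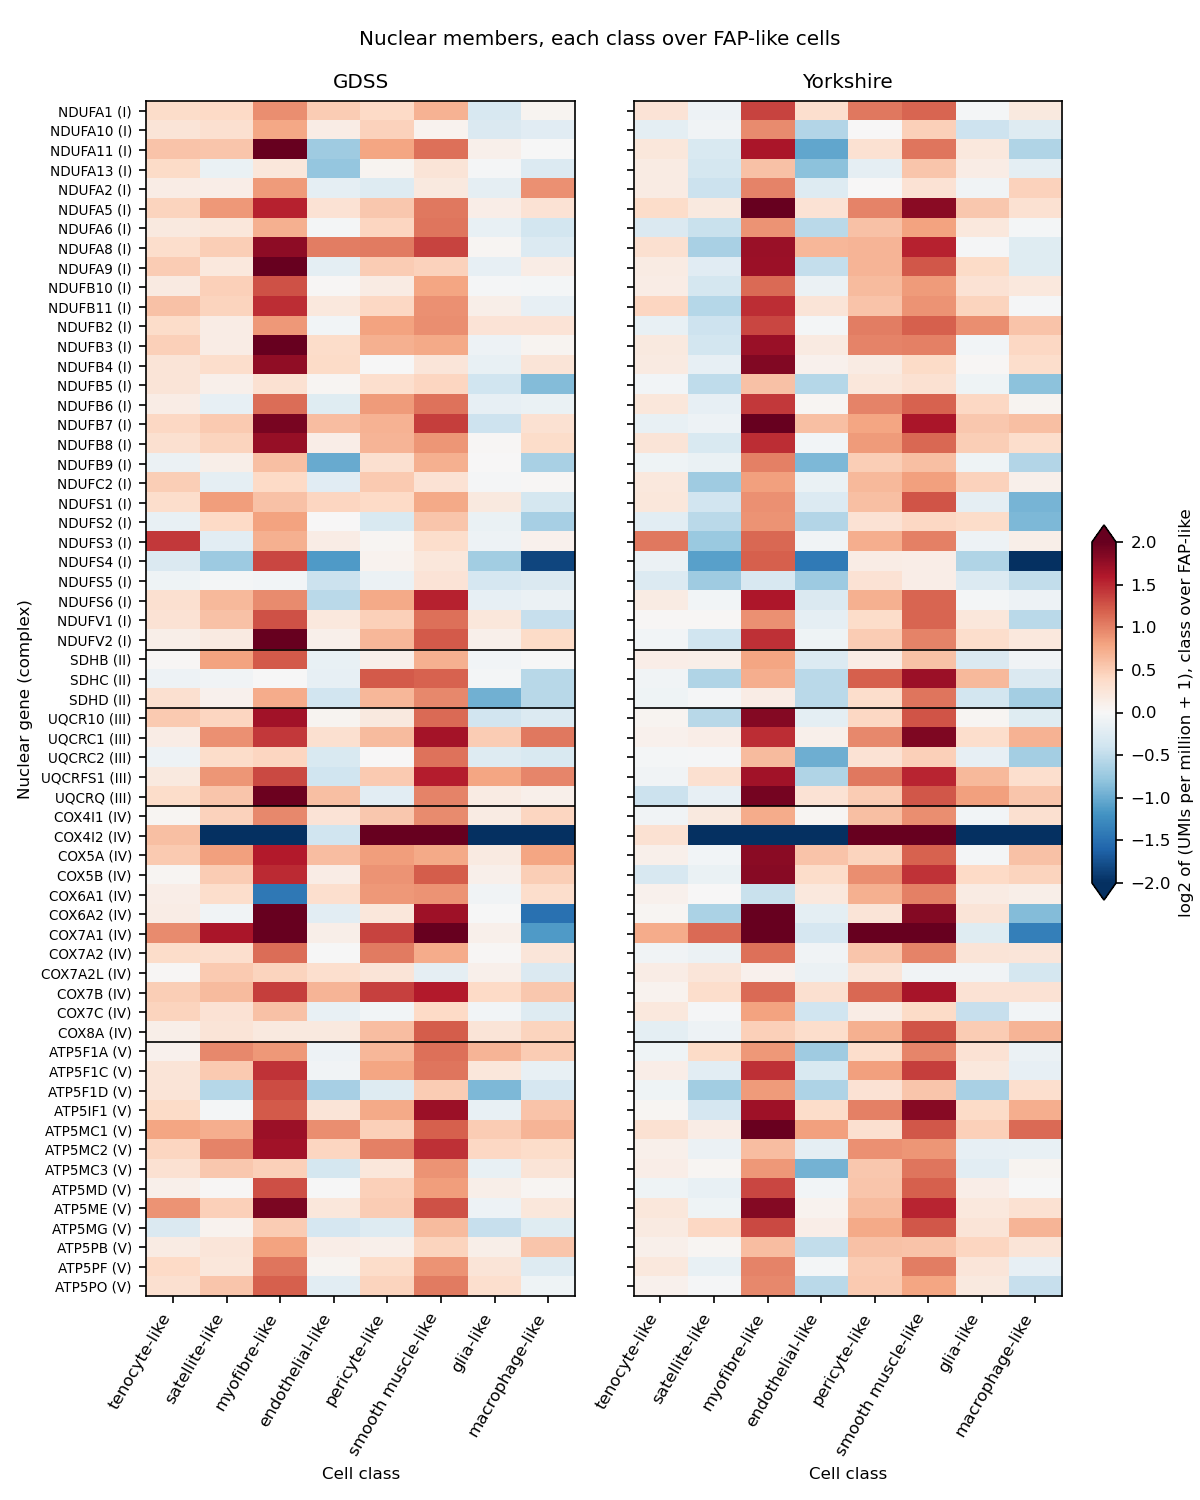
Log2 ratio of each class over FAP-like cells (colour, on levels in CPM plus 1, limited at 2 in either direction) for the 61 nuclear members with at least 1000 UMIs, with GDSS left of Yorkshire. The smooth muscle-like and myofibre-like columns are higher for nearly all nuclear members of each complex, while COX4I2, COX6A2 and COX7A1 show the widest spread between classes.

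The isoform genes of complex IV varied most between classes. COX4I2 (ENSSSCG00000038384), the alternative form of subunit 4, had 541 CPM in GDSS and 590 in Yorkshire pericyte-like cells, and 357 in GDSS and 547 in Yorkshire smooth muscle-like cells. Tenocyte-like cells had 74.7 in GDSS and 57.7 in Yorkshire, and FAP-like cells had 48.8 in GDSS and 46.3 in Yorkshire. It was 11.1-fold as high in pericyte-like as in FAP-like cells in GDSS and 12.8-fold in Yorkshire. Satellite-like, macrophage-like, glia-like and myofibre-like cells had at most 4.76 CPM in either library. In glia-like cells 0 UMIs were found in GDSS, which allows up to 5.03 CPM, and 1 UMI in Yorkshire.

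COX4I1, the common form, was far more even, from 954 to 1860 CPM in GDSS and from 914 to 1813 in Yorkshire. COX4I2 thus made up 28.2% (25.2 to 31.3) of the UMIs of the COX4 pair in GDSS and 29.0% (26.9 to 31.2) in Yorkshire pericyte-like cells. In smooth muscle-like cells it made up 16.3% in GDSS and 23.2% in Yorkshire, and in FAP-like cells 4.87% in GDSS and 4.62% in Yorkshire. After each cell was thinned to 1500 UMIs, a COX4I2 UMI was found in 51.7% of GDSS and 58.3% of Yorkshire pericyte-like cells. The unthinned shares were 62.0% in GDSS and 73.3% in Yorkshire. In glia-like cells the thinned share was 0% in both libraries and the unthinned share 0% in GDSS and 0.311% in Yorkshire. The part of RNA from other cells in these shares was not tested.

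Within smooth muscle-like cells COX4I2 was uneven. In cluster 19, which held 78.3% of these cells in GDSS and 91.1% in Yorkshire, it had 469 CPM in GDSS and 611 in Yorkshire. In cluster 22 it had 20.7 in GDSS and 31.3 in Yorkshire. The nuclear set had 17857 CPM in GDSS and 19892 in Yorkshire in cluster 19, and 11482 in GDSS and 11927 in Yorkshire in cluster 22. FAP-like cells, the reference of the ratios above, were uneven in COX4I2 too. It had 171 CPM in GDSS and 168 in Yorkshire in their cluster 18, and 11.7 and 6.45 in their cluster 4. In endothelial-like cells COX4I2 had 36.9 CPM in GDSS and 3.70 in Yorkshire. The pericyte marker RGS5 moved with it, at 101 in GDSS and 29.9 in Yorkshire endothelial-like cells. Scaled by the RGS5 level, RNA from pericyte-like cells would carry 25.4 CPM of COX4I2 in GDSS and 7.47 in Yorkshire, and the measured 3.70 in Yorkshire lay below that estimate. In smooth muscle-like cells the same scaling gives 236 in GDSS and 374 in Yorkshire, beside the 357 and 547 measured. RGS5 itself had 932 CPM in GDSS and 1492 in Yorkshire there, and cells that also passed the pericyte gate were not left out. In this class the scaling thus cannot separate the cells' own RNA from RNA of pericyte-like cells. For endothelial-like cells the estimates take RGS5 as coming from pericyte-like cells alone, which was not tested.

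COX6A2 (ENSSSCG00000036789), the muscle form of subunit 6A, had 270 CPM in GDSS and 343 in Yorkshire myofibre-like cells, where its share of the COX6A pair had an interval of 57.8% to 87.9% in GDSS and of 56.0% to 66.1% in Yorkshire. Smooth muscle-like cells came next, with 85.8 in GDSS and 138 in Yorkshire, or 15.8% of the pair in GDSS and 18.8% in Yorkshire. The other 7 classes had between 8.61 and 30.6 CPM in GDSS and between 20.3 and 45.8 in Yorkshire. Scaled by the fibre actin ACTA1, RNA from myofibre-like cells would carry 3.84 CPM of COX6A2 in GDSS and 4.88 in Yorkshire smooth muscle-like cells, below the levels measured there. In Yorkshire macrophage-like cells the measured 20.3 stood beside such an estimate of 16.9. The estimates take ACTA1 as coming from myofibre-like cells alone, and the part of such RNA in any class was not tested. COX6A1, the common form, was lowest in myofibre-like cells of both libraries and highest in smooth muscle-like cells, at 456 in GDSS and 597 in Yorkshire.

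COX7A1 (ENSSSCG00000037792), the muscle form of subunit 7A, was highest in smooth muscle-like cells, with 246 CPM in GDSS and 376 in Yorkshire. Myofibre-like cells had 210 in GDSS and 261 in Yorkshire, satellite-like cells 104 in GDSS and 94.5 in Yorkshire, and pericyte-like cells 85.1 in GDSS and 177 in Yorkshire. Macrophage-like cells were lowest, at 14.5 in GDSS and 15.9 in Yorkshire. Scaling by ACTA1 gives 2.43 in GDSS and 12.9 in Yorkshire for RNA from myofibre-like cells there, whose part was not tested. In the COX7A1 and COX7A2 pair it made up 38.0% in GDSS and 44.4% in Yorkshire smooth muscle-like cells and 4.87% in GDSS and 5.34% in Yorkshire macrophage-like cells. The order of the 4 leading classes differed between libraries only in pericyte-like and satellite-like cells. COX6A2 and COX7A1, both named for striated muscle, thus stood high in the smooth muscle-like class too.

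Complex V has 3 genes for its c subunit, which encode the same mature protein in mammals. ATP5MC2 made up 34.4% of their UMIs in GDSS and 47.6% in Yorkshire FAP-like cells, and 45.5% in GDSS and 55.6% in Yorkshire pericyte-like cells. In endothelial-like cells ATP5MC1 made up 42.7% in GDSS, the largest share of the 3, and 41.7% in Yorkshire, where ATP5MC2 made up 42.8%. They had the least ATP5MC3, with 21.9% in GDSS and 15.5% in Yorkshire, except for GDSS myofibre-like cells with 19.8%. COX6B2, the testis form of subunit 6B in mammals, had 54 UMIs in all classes together, NDUFS8, a core complex I subunit, had 52, and ATP8 had 51, too few for a comparison.

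**Figure D3:**
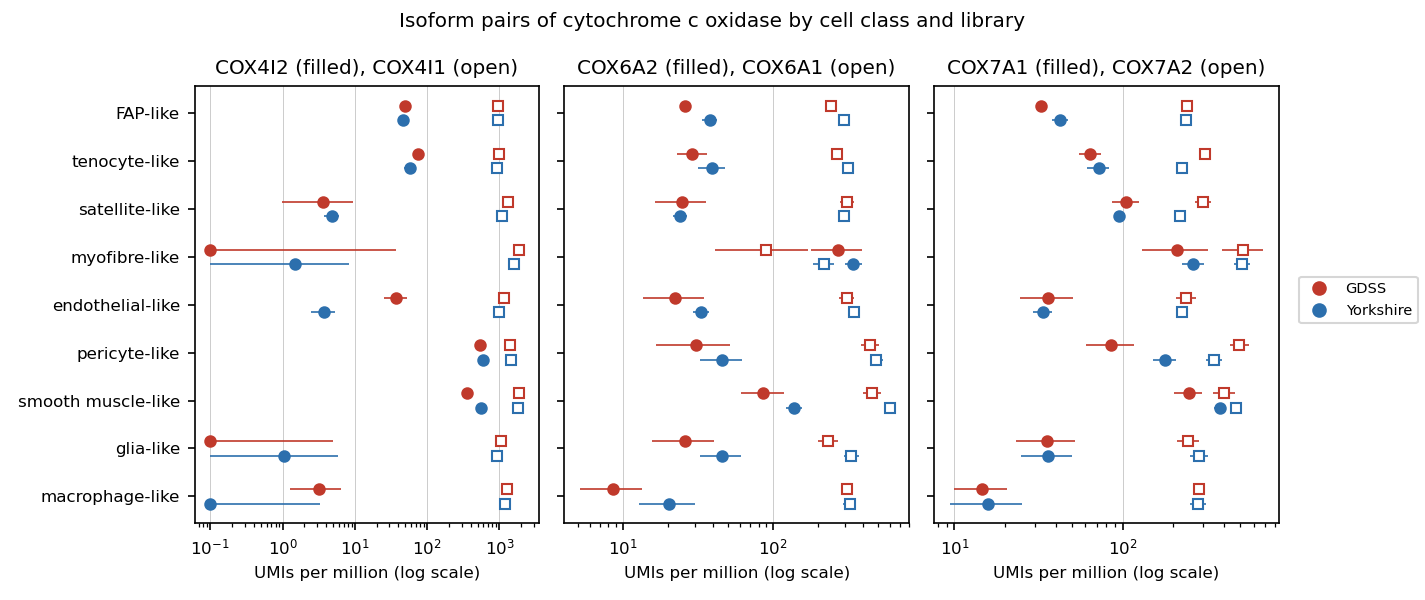
Levels of COX4I2, COX6A2 and COX7A1 and of their common forms (CPM, log axis) in the 9 classes of each library, with filled points for the isoform, open points for the common form, bars for the 95% interval and levels of 0 drawn at the left edge. COX4I2 stands at 541 and 590 in pericyte-like cells of GDSS and Yorkshire and at 0 and 1.06 in glia-like cells, while COX4I1 stays between 914 and 1860.

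By the Pearson correlation of log2 levels over the 18 sums of class and library, among 10699 genes, the genes with the pattern most like COX4I2 were PTH1R (0.96), PDGFRB (0.96), MEIS2 (0.95), PCDH18 (0.95) and ADRA1A (0.95). PDGFRB is itself a pericyte gate marker. Named genes most like COX7A1 were COQ9 (0.94), CAP2 (0.94), NDUFV1 (0.93) and GOT2 (0.93), and those most like COX6A2 were PDE4DIP (0.95), SLC25A4 (0.94), UQCR10 (0.93) and SAMM50 (0.93). COQ9 acts in the synthesis of coenzyme Q, SLC25A4 is an ADP/ATP carrier of muscle, NDUFV1 and UQCR10 are members, and SAMM50 is part of the outer-membrane sorting machinery. The 18 points share 2 libraries, so these values describe the sums.

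Of the mitochondrial members COX3, COX2 and ATP6 gave most UMIs. COX3 made up 28.8% of the mitochondrial UMIs in GDSS and 24.4% in Yorkshire, COX2 19.0% in GDSS and 21.5% in Yorkshire, and ATP6 16.9% in GDSS and 16.2% in Yorkshire. CYTB followed with 10.9% in GDSS and 9.46% in Yorkshire, ND4 with 8.91% and 8.61%, and COX1 with 8.42% and 10.6%. ND1, ND2, ND3 and ND5 each gave between 1.22% and 2.01% in GDSS and between 1.61% and 3.36% in Yorkshire. ND4L gave 0.260% in GDSS and 0.550% in Yorkshire, and ND6, which lies on the other strand of the mitochondrial genome from the rest, 0.121% in GDSS and 0.211% in Yorkshire.

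ND3 and ND4L, both small membrane subunits of complex I, were lower in GDSS than in Yorkshire cells in each of the 9 classes, a direction that turned in 1 of 180 recomputed values, for ND4L in pericyte-like cells with at most 5% mitochondrial UMIs (log2 0.30). ND3 had 735 CPM in GDSS and 1149 in Yorkshire FAP-like cells, 937 in GDSS and 2224 in Yorkshire smooth muscle-like cells, and 499 in GDSS and 731 in Yorkshire endothelial-like cells. Its log2 ratio ran from -1.25 to -0.55 over the classes. ND4L had 112 CPM in GDSS and 243 in Yorkshire FAP-like cells, with log2 ratios from -1.40 to -0.46 over the classes. As shares of mitochondrial UMIs, ND3 ranged from 1.47% to 2.99% in GDSS and from 2.80% to 5.14% in Yorkshire classes, and ND4L from 0.147% to 0.347% in GDSS and from 0.286% to 0.799% in Yorkshire. The level of ND2 was lower in GDSS in all 9 classes too, with log2 ratios from -0.74 to -0.018. Of the 6530 genes with at least 1000 UMIs, 5.42% were lower in GDSS in all 9 classes. The shares of ND2 and COX2 were also lower in GDSS in all 9 classes, and those of COX3 and ATP6 higher in all 9.

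ND4L lies on 1 message with ND4, and ATP8 on 1 message with ATP6, so the split of UMIs within these pairs depends on how reads were assigned. ND3 and ND1 do not lie on such a shared message. ND1 stood 1.53-fold higher in GDSS satellite-like cells, at 1308 CPM against 855 in Yorkshire, so mitochondrial members moved in both directions within 1 class.

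**Figure D4:**
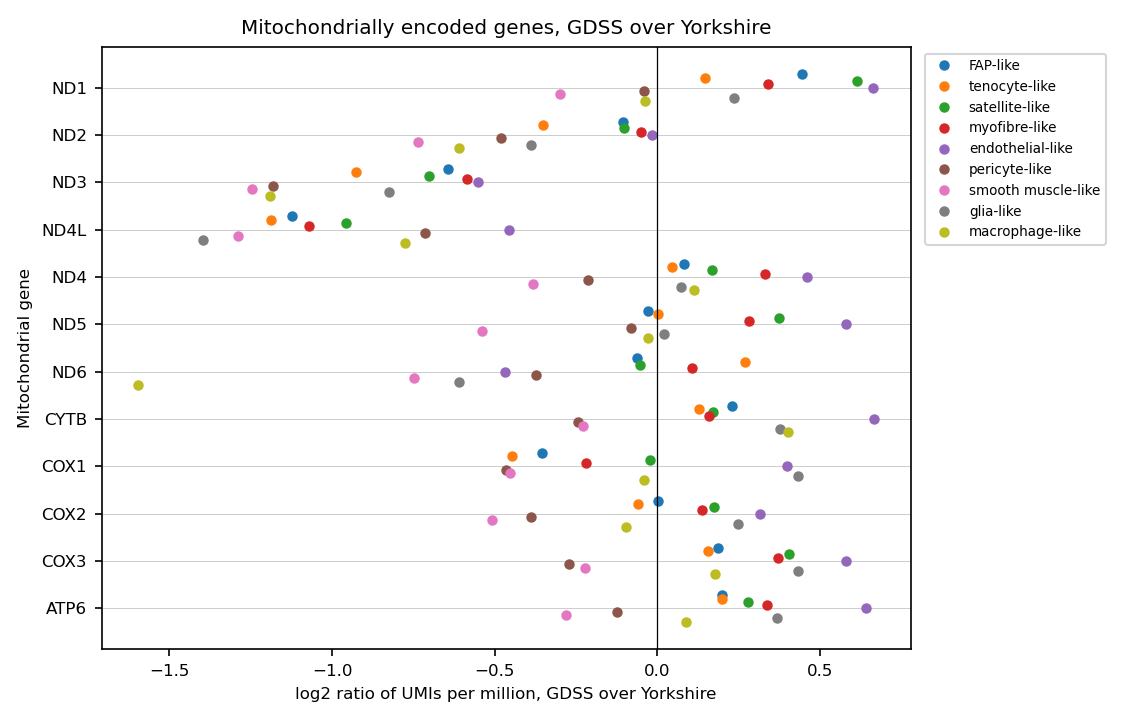
Log2 ratio of GDSS over Yorkshire for the mitochondrial members in the 9 classes, ATP8 left out for its low count, each point 1 class. ND2, ND3 and ND4L lie below 0 in all 9 classes, ND2 from -0.74 to -0.018 and ND3 from -1.25 to -0.55. The direction turned for ND4L in pericyte-like cells with at most 5% mitochondrial UMIs.

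Between breeds the nuclear set moved in different directions in different classes. In FAP-like cells it had 8216 CPM in GDSS and 9216 in Yorkshire, a log2 ratio of -0.17 (-0.18 to -0.15). That ratio turned to 0.092 with median-of-ratios size factors, which take out a shift of -0.26 in the median of all genes in these cells. Cluster 7 held 6.83% of these cells in GDSS and 36.0% in Yorkshire, with the nuclear set at 10320 in GDSS and 10253 in Yorkshire. By totals the nuclear set was also higher in GDSS in clusters 3 and 18, and lower in clusters 1, 4, 5 and 21. The part of cluster makeup in the FAP-like value was not tested. In satellite-like cells the nuclear set had 10657 in GDSS and 8628 in Yorkshire, a log2 ratio of 0.30 (0.28 to 0.33) by totals and 0.25 by size factors. The mitochondrial set was 4.12% of UMIs in GDSS and 3.93% in Yorkshire FAP-like cells, a log2 ratio of 0.068 that turned to -0.019 as a mean of per-cell shares. In satellite-like cells it was 5.13% in GDSS and 4.43% in Yorkshire, a log2 ratio of 0.21. Pericyte-like cells had 12183 CPM of the nuclear set in GDSS and 14355 in Yorkshire, and smooth muscle-like cells 15869 in GDSS and 19012 in Yorkshire, with the mitochondrial set lower in GDSS as well. Cells with over 10% mitochondrial UMIs made up 8.29% of pericyte-like cells in GDSS and 15.1% in Yorkshire. In smooth muscle-like cells they made up 8.53% in GDSS and 26.3% in Yorkshire. In endothelial-like cells, of which the GDSS ones carried the erythroid RNA given above, the nuclear set was 8595 in GDSS and 8394 in Yorkshire, and the mitochondrial share was 3.39% in GDSS and 2.43% in Yorkshire. The part of the erythroid RNA in these values was not tested.

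In FAP-like cells 1 of 61 measured nuclear members was higher in GDSS by 1.5-fold or more and 1 lower, where 5.79% of all 9866 genes were higher and 18.7% lower. The median log2 ratio of the members was -0.18, the same as that of all genes. The higher one was ATP5MG, a subunit of the membrane part of ATP synthase, at 168 CPM in GDSS and 106 in Yorkshire. The lower one was ATP5MC2, at 168 in GDSS and 293 in Yorkshire. Dissociation stress genes, a list of immediate-early and heat-shock genes such as FOS and HSPA8, were higher in GDSS in 6 of 9 with a median log2 of 0.93. Whether that has a part in the member values was not tested.

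In satellite-like cells 15 of 60 measured nuclear members stood 1.5-fold or more above Yorkshire and 0 below, where 12.2% of all genes were higher and 20.3% lower. The median log2 ratio of the members was 0.40 and that of all genes -0.07. The higher members were 9 of 28 for complex I, 3 of 5 for complex III, 2 of 13 for complex V, 1 of complex II and 0 of 11 for complex IV. NDUFB11, a membrane-arm subunit of complex I, had 82.4 CPM in GDSS and 41.1 in Yorkshire. NDUFA8 had 80.6 in GDSS and 42.9 in Yorkshire, and UQCR10, a small complex III subunit, 113 in GDSS and 64.7 in Yorkshire. SDHC had 57.7 in GDSS and 33.9 in Yorkshire, and SDHA, the flavoprotein of complex II, 57.7 in GDSS and 35.5 in Yorkshire.

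The makeup of the satellite-like class differed between libraries. Of the GDSS satellite-like cells 33.8% lay in cluster 8, 24.7% in cluster 12 and 18.6% in cluster 9, and of the Yorkshire ones 20.8%, 44.0% and 5.13% lay in the same clusters, with most of the rest in cluster 11. The nuclear set was higher in GDSS within each: 10983 CPM in GDSS and 9507 in Yorkshire in cluster 8, 14535 and 12873 in cluster 9, 9497 and 8118 in cluster 11, and 8580 and 7902 in cluster 12. With equal weight for each cluster the log2 ratio was 0.18, against 0.30 for the sum. The stress genes were higher in GDSS in 2 of 9 and lower in 1, with a median log2 of 0.28, and FAP markers summed to 1551 CPM in GDSS and 1355 in Yorkshire satellite-like cells. The part of either, and of cluster makeup, in the member values was not tested.

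In the mural and glial classes no measured nuclear member was higher in GDSS by 1.5-fold or more, while the shares lower were near those of all genes in smooth muscle-like and glia-like cells. Smooth muscle-like cells had 0 of 61 higher and 13 lower, where 9.02% of all genes were higher and 19.6% lower, with a median log2 of -0.29 against -0.13. COX7A1, COX4I2, COX6A2 and COX5A were among the lower members. COX5A, a subunit of complex IV, had 174 CPM in GDSS and 294 in Yorkshire. Cluster 22, low in COX4I2 and COX7A1, held 20.2% of the smooth muscle-like cells in GDSS and 8.46% in Yorkshire. Within cluster 19 COX4I2 had 469 CPM in GDSS and 611 in Yorkshire, and COX7A1 308 in GDSS and 405 in Yorkshire. Pericyte-like cells had 0 of 54 higher and 13 lower, where 13% of all genes were higher and 13.2% lower, with a median of -0.20 against -0.03. NDUFB10, a complex I subunit, had 124 CPM in GDSS and 216 in Yorkshire pericyte-like cells. Cluster 20 held 62.4% of the pericyte-like cells in GDSS and 34.6% in Yorkshire, with the nuclear set at 15138 in GDSS and 15450 in Yorkshire. Cluster 19 held 22.4% of them in GDSS and 46.5% in Yorkshire, with the nuclear set at 11638 and 15375. The stress genes moved the other way beside the lower members, higher in GDSS in 5 of 9 in smooth muscle-like and in 8 of 8 in pericyte-like cells. FAP markers summed to 1802 CPM in GDSS and 981 in Yorkshire smooth muscle-like cells. The part of stress genes, FAP markers or cluster makeup in the member values was not tested.

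Glia-like cells had 0 of 49 higher and 9 lower, where 8.85% of all genes were higher and 20.7% lower, and a median of -0.34 against -0.12. ATP5IF1 had 130 CPM in GDSS and 229 in Yorkshire glia-like cells. Cluster 14, in which the nuclear set was level at 11101 in GDSS and 11183 in Yorkshire, held 23.9% of these cells in GDSS and 47.8% in Yorkshire. Cluster 13 had 7810 CPM in GDSS and 8600 in Yorkshire.

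The other 4 classes had few members apart. Macrophage-like cells had 0 of 55 higher and 1 lower, NDUFB4, where 11.2% of all genes were higher and 13.9% lower. Stress genes were lower in GDSS in 7 of 8 there, and their part in the member values was not tested. Tenocyte-like cells had 2 of 61 higher and 1 lower, where 8.54% were higher and 13.1% lower, the higher ones being NDUFB2 and UQCRQ. Endothelial-like cells had 2 of 60 higher and 1 lower, where 8.6% were higher and 14.8% lower. Their mitochondrial members ATP6, CYTB and ND1 passed the fold upward, ATP6 at 6231 CPM in GDSS and 3996 in Yorkshire. Myofibre-like cells had 1 of 53 higher and 7 lower, where 7.15% were higher and 16.6% lower, among them NDUFB9 at 340 in GDSS and 615 in Yorkshire.

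Of the 61 nuclear members with at least 1000 UMIs, 6 (9.84%) were lower and 1 (1.64%) higher in GDSS in all 9 classes, against 5.42% and 2.04% of the 6530 genes with as many UMIs. NDUFB4, NDUFB6, NDUFB9, COX7B, ATP5MD and ATP5F1D were lower in GDSS in each class by totals, though with size factors COX7B turned in tenocyte-like cells and NDUFB6 in tenocyte-like and FAP-like cells, and COX7A2L, which takes part in the joining of complexes III and IV, was higher in each by either scaling. ATP5MD, a small ATP synthase subunit, ranged from -0.88 to -0.34 in log2 ratio, and NDUFB9, the nuclear complex I member with most UMIs, from -0.86 to -0.20. COX7A2L ranged from 0.0013 to 0.58.

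**Figure D5:**
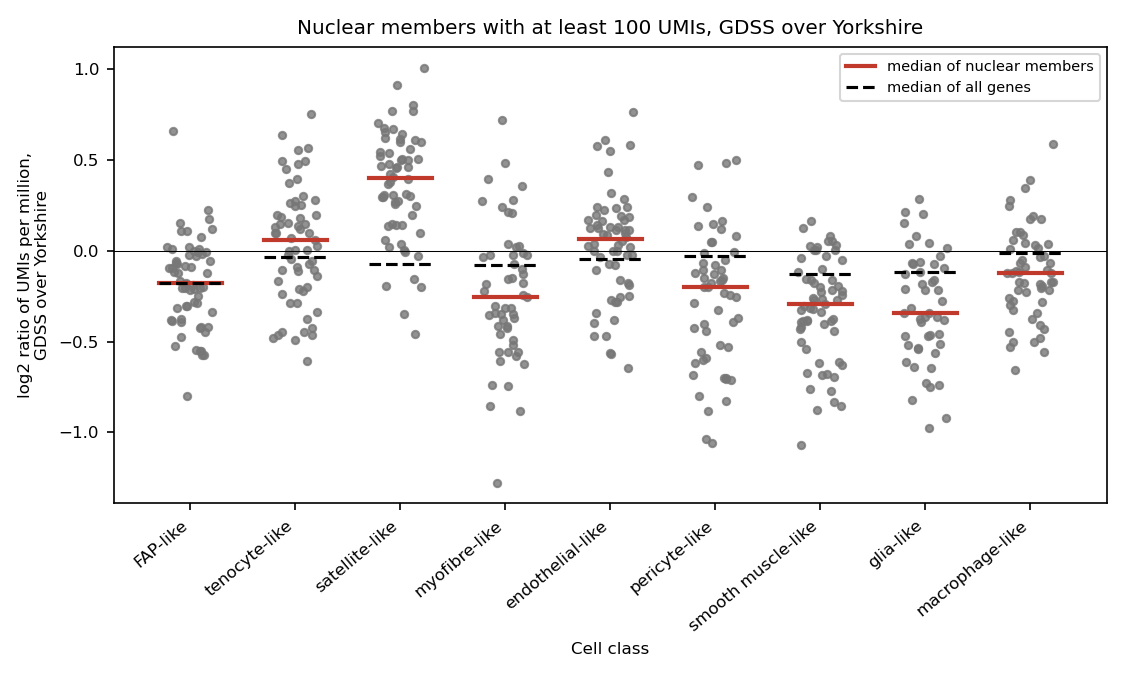
Log2 ratio of GDSS over Yorkshire for each nuclear member with at least 100 UMIs in the class, by class, with the median of the members as a red line and the median of all genes as a dashed line. Satellite-like cells have a member median of 0.40 against -0.07 for all genes, and smooth muscle-like cells -0.29 against -0.13, on levels scaled by total UMIs.

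Genes around the pathway were described from fixed lists. In smooth muscle-like cells, 8 of 15 measured genes of the citric acid cycle stood at least 1.5-fold above FAP-like cells in both libraries, 4 of 9 of fatty acid oxidation and 8 of 13 of mitochondrial import and carriers, where 14.2% of all genes did. MDH2, a malate dehydrogenase, had 126 CPM in GDSS and 198 in Yorkshire smooth muscle-like cells, against 32.9 and 52.0 in FAP-like cells. HADHB, of mitochondrial fatty acid oxidation, had 160 in GDSS and 266 in Yorkshire smooth muscle-like cells, against 40.9 and 50.7 in FAP-like cells. Of the mitochondrial ribosome 5 of 45 measured genes stood as high, close to that share of all genes, and of the regulators of mitochondrial biogenesis 0 of 5. TFAM, which packages and transcribes mitochondrial DNA, had 31.6 in GDSS and 37.0 in Yorkshire smooth muscle-like cells, against 30.9 and 36.4 in FAP-like cells. PPARGC1A, another listed regulator, had too few UMIs to be among those 5. It had 27.1 in GDSS and 84.0 in Yorkshire smooth muscle-like cells, against 1.65 and 2.97 in FAP-like cells. In satellite-like cells 18 of 67 genes of the mitochondrial ribosome stood 1.5-fold or more above Yorkshire and 2 below, beside 2 of 17 higher and 2 lower for the citric acid cycle, where 12.2% of all genes were higher and 20.3% lower.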

How the data were processed

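Raw UMI counts per gene and cell of both libraries were analysed as the authors deposited them, in filtered matrices written by Cell Ranger (software version 3.1.0), per the file headers and the submitters' processing notes. The genome build is not given in the sources used here. Barcodes with at least 500 genes and a scrublet doublet score under 0.3 were kept. Scrublet's own threshold called 0 doublets in the GDSS library, so a fixed score was used. No cap on mitochondrial share was set, because those genes are members. Each cell's class came from marker gates on UMIs per 10000. Gates formed families: stroma, muscle lineage, endothelium, vessel wall, glia and macrophage. Cells passing gates of several families (313 GDSS, 312 Yorkshire) were left out, while those passing several gates of the same family were kept. Joint clusters were made without members with scanpy 1.11.5 (2000 variable genes, 30 components, 15 neighbours, Leiden resolution 1). Counts were summed per class and library and scaled to 1000000. Intervals are exact Poisson for levels, Clopper-Pearson for shares and exact conditional binomial for ratios, at 95%, from scipy 1.17.1. A fold of 1.5 counted as apart. Breed ratios needed 100 UMIs over both sums, and ratios to FAP-like cells 10 expected UMIs in the smaller sum. Values per gene were named by largest ratio or range, by complex, and as isoforms. The calculations were tested on simulated data. Alternatives were mitochondrial caps, thinning, clusters in place of gates, per-cell shares, size factors and other totals. Members, lists and gates were chosen with earlier results of these data known. Near-identical copies of nuclear subunit genes may take UMIs from their parent gene, so those counts are uncertain.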

Additional observations from a re-analysis of the deposited data

Results flagged for a closer look

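In 4 cases a set differed between breeds in the opposite direction from the same set in FAP-like cells, with counting intervals of both that leave out 0. The nuclear set of endothelial-like cells also had the opposite sign (log2 0.034), but its interval, -0.00034 to 0.068, holds 0. These differences between classes were not tested, since each breed was 1 library. The nuclear set, lower in GDSS FAP-like cells (log2 -0.17), was higher in GDSS satellite-like cells (log2 0.30) and in GDSS tenocyte-like cells (log2 0.032). The FAP-like value turned with size factors (0.092) and the tenocyte-like value with a total that leaves out mitochondrial and ribosomal protein genes (-0.011). The direction of the nuclear set in FAP-like cells also differed between clusters, as given above. The mitochondrial set, higher in GDSS FAP-like cells (log2 0.068, and -0.019 as a mean of per-cell shares), was lower in GDSS pericyte-like cells (log2 -0.30) and in GDSS smooth muscle-like cells (log2 -0.38).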

How the results depend on the processing

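All values here are log2 ratios unless said to be counts, and a cause was not tested for any of them. With barcodes of at most 10% mitochondrial UMIs, the mitochondrial set between breeds was 0.085 in FAP-like and 0.15 in satellite-like cells, and the nuclear set of Yorkshire smooth muscle-like over FAP-like cells 0.99. With at most 5%, the nuclear set between breeds was -0.15 in FAP-like and 0.25 in satellite-like cells, the mitochondrial set 0.11 in FAP-like, 0.018 in satellite-like, -0.011 in tenocyte-like and -0.041 in macrophage-like cells, and ND4L in pericyte-like cells 0.30. Under that cap the nuclear set over FAP-like cells was 0.30 in GDSS satellite-like, 0.76 in GDSS and 0.73 in Yorkshire smooth muscle-like and 1.17 in Yorkshire myofibre-like cells, and 11 members stood apart between breeds in satellite-like cells, against 18 without a cap. With cells thinned to 1500 UMIs, the mitochondrial set between breeds was 0.0041 in FAP-like, 0.18 in satellite-like and -0.068 in macrophage-like cells, the nuclear set -0.0041 in tenocyte-like cells, and the nuclear set of Yorkshire satellite-like and smooth muscle-like over FAP-like cells -0.12 and 1.07; 7 members stood apart in FAP-like cells, against 4 unthinned. With classes from joint clusters, the mitochondrial set between breeds was 0.061 in FAP-like and 0.19 in satellite-like cells, and the nuclear set over FAP-like cells 0.77 in GDSS and 0.89 in Yorkshire smooth muscle-like, 0.96 in GDSS myofibre-like and -0.11 in Yorkshire satellite-like cells. With equal weights per cluster, chosen after seeing the data, the nuclear set between breeds was -0.073 in FAP-like and 0.18 in satellite-like cells, and the mitochondrial set 0.17 in FAP-like, 0.12 in satellite-like and -0.049 in tenocyte-like cells. As a mean of per-cell shares, the mitochondrial set between breeds was -0.019 in FAP-like, 0.24 in satellite-like and -0.10 in macrophage-like cells, and the nuclear set over FAP-like cells -0.11 in Yorkshire satellite-like and 1.00 in GDSS smooth muscle-like cells. With median-of-ratios size factors, the nuclear set between breeds was 0.092 in FAP-like, 0.25 in satellite-like, -0.031 in endothelial-like and 0.0082 in macrophage-like cells, and the mitochondrial set 0.33 in FAP-like and 0.15 in satellite-like cells. The nuclear set over FAP-like cells was then 0.29 in GDSS and 0.20 in Yorkshire satellite-like, 0.64 in GDSS and 0.85 in Yorkshire smooth muscle-like, and 0.56 in GDSS and 1.04 in Yorkshire myofibre-like cells. With a gate of 1 more marker, the nuclear set between breeds was 0.34 and the mitochondrial set 0.17 in satellite-like cells, the mitochondrial set -0.011 in tenocyte-like cells, and the nuclear set of satellite-like over FAP-like cells 0.46 in GDSS and -0.047 in Yorkshire. With a total that leaves out mitochondrial and ribosomal protein genes, the nuclear set between breeds was -0.22 in FAP-like, 0.36 in satellite-like and -0.011 in tenocyte-like cells, and the mitochondrial set 0.013 in FAP-like, 0.26 in satellite-like and -0.028 in tenocyte-like cells. The nuclear set over FAP-like cells was then 0.56 in GDSS and -0.022 in Yorkshire satellite-like, 1.00 in Yorkshire smooth muscle-like and 1.09 in Yorkshire myofibre-like cells, and 9 members stood apart between breeds in FAP-like cells.

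COX4I2, COX6A2 and COX7A1 kept their direction over FAP-like cells in 90 of 90 values (2.04 to 3.95), ND3 and ND4L between breeds in 179 of 180, and the sets between breeds in the other 7 classes in 129 of 140. No paired analysis was possible because each breed was 1 library. The mean of per-cell shares gives no count of members, and equal weights were used only between breeds. Depth limits the rarer members: 57 GDSS myofibre-like cells left 30 of 63 nuclear members to be set against FAP-like cells, and NDUFS8, COX6B2 and ATP8 could be compared nowhere.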

Other observations

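Several genes around the respiratory chain lay outside the 76 members and differed between classes. NDUFA4L2, a paralog of the complex IV subunit NDUFA4, had 723 CPM in GDSS and 421 in Yorkshire pericyte-like cells, and 176 in GDSS and 166 in Yorkshire smooth muscle-like cells. In FAP-like cells it had 1.80 in GDSS and 0.619 in Yorkshire. NDUFA4 itself had 138 CPM in GDSS and 263 in Yorkshire pericyte-like cells and was highest in myofibre-like cells, at 650 in GDSS and 1012 in Yorkshire. CYCS, the cytochrome c that carries electrons from complex III to IV, had 3163 in GDSS and 1015 in Yorkshire smooth muscle-like cells, against 447 and 228 in FAP-like cells.

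The ADP/ATP carriers divided the classes. SLC25A4, the muscle form, had 1400 CPM in GDSS and 1797 in Yorkshire myofibre-like cells, against 43.4 and 54.2 in FAP-like cells. SLC25A6 was highest in satellite-like cells, at 5491 in GDSS and 5316 in Yorkshire, against 2131 and 2131 in FAP-like cells. UCP2, an uncoupling-protein family member, had 264 in GDSS and 251 in Yorkshire macrophage-like cells and at most 6.41 in GDSS and 17.9 in Yorkshire in the other classes. PPARGC1A, a coactivator of mitochondrial biogenesis, had 27.1 in GDSS and 84.0 in Yorkshire smooth muscle-like cells and 29.3 in both libraries in satellite-like cells. In FAP-like cells it had 1.65 in GDSS and 2.97 in Yorkshire.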
